A study of Mus musculus with 22 samples.

Results

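B cells of Eμ-Myc mice taken before lymphoma were compared with B cells of wild type mice, gene by gene over the whole array. In the Eμ-Myc transgene the enhancer of the immunoglobulin heavy chain locus (Eμ) drives Myc in cells of the B lineage. The premalignant group comprised 5 arrays of Eμ-Myc transgenic C57Bl/6 mice aged 4 to 6 weeks, and the wild type group comprised 4 arrays of non-transgenic C57Bl/6 mice of the same age, which the series design calls littermates. These 9 of the 22 arrays of the series were chosen by their labels, and the other 13 arrays hold lymphomas. B cells had been isolated on magnetic beads against B220 or IgM out of bone marrow or spleen, and the labels do not give the organ or the antibody for each array. Where the groups differ in organ or antibody, these cannot be told apart from genotype in any result below. The wild type titles name B220+ cells, and their description field speaks of Eμ-Myc animals although title, source and genotype all read wild type, so the genotype was followed. Replicates are numbered in the labels without a statement that each is 1 mouse or a pool. The p-values therefore measure the spread between these samples. After probe sets that stayed dim were removed, 6437 genes were tested, each by its brightest probe set. A log2 intensity of 4 was the level of that filter, and values below it are called dim.

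Myc is a transcription factor that binds DNA as a dimer with Max, most strongly at the hexamer known as the E-box, and related proteins such as Mnt, Mga and the Mxd family compete for the same partner. It is known for driving ribosome production, nucleotide and amino acid supply, and entry into S phase. During B cell development Myc is normally transient, high in dividing precursors and in newly activated cells and low in resting mature B cells. In Eμ-Myc mice the young animals are known to carry an excess of dividing B cell precursors before clonal lymphomas appear.

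Values throughout are log2 of the deposited GCRMA intensities, listed by replicate number. Myc measured 10.01, 9.53, 10.21, 10.05 and 10.04 on the premalignant arrays, against 7.39, 6.74, 6.96 and 7.07 on the wild type arrays. The groups did not overlap, and the order is the one the labels require. The difference was 2.92 log2 units ± 0.18 (SE), with an adjusted p of 1.45e-05 in limma's moderated test. Transcripts of the transgene and of the endogenous gene cannot be told apart with this probe set.

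Several array-wide features crossed or moved with the groups. The X-inactivation transcript Xist measured 1.85, 9.51, 10.01, 10.02 and 10.50 on the premalignant arrays, against 1.85, 2.68, 10.63 and 10.56 on the wild type arrays. Xist was thus dim on premalignant replicate 1 and on wild type replicates 1 and 2. The Y-linked Eif2s3y lay above a level of 4 on these arrays alone (4.98, 7.91 and 5.38). Kdm5d, also Y-linked, did so on wild type replicates 1 and 2 (4.02 and 4.61), and Uty on 0 arrays. The labels give no sex, and arrays without Xist were 1 of 5 premalignant and 2 of 4 wild type arrays, so the groups were not balanced in these transcripts. The Myc difference was 2.94 among the 6 arrays with Xist and 2.94 among the 3 arrays without it. The red cell anion exchanger Slc4a1 reached 10.41 on premalignant replicate 2 and 8.07 on wild type replicate 2, and lay between 3.53 and 5.82 on the remaining 7 arrays. The neutrophil gene S100a8 measured 6.65, 8.31, 8.16, 8.09 and 7.50 on the premalignant arrays, against 6.56, 7.72, 3.15 and 4.16 on the wild type arrays, and was not called (adjusted p = 0.0553, limma), though it was under 9 of the 20 alternatives (adjusted p between 0.00281 and 0.24). All 6 neutrophil genes tested had positive differences, with a median of 0.96 and no call, and the summed neutrophil signal ranged from 9.02 to 10.0 in premalignant and from 7.14 to 9.48 in wild type samples (exact two-sided permutation p = 0.0317, adjusted p = 0.127). Among B cell markers, Cd79a, the signalling partner of surface immunoglobulin, was among the bright genes on all arrays, at 12.26 to 13.17 in premalignant and 12.81 to 13.28 in wild type samples. Of 8 B cell markers tested 5 fell (Cd79b, Cd22, Ptprc, Blnk and Ighm, whose probe set may cross-hybridise) and 0 rose. None of these 5 calls held when arrays were centred on spiked-in controls. The call of Blnk was lost without any 1 of premalignant replicates 2 to 4 or wild type replicates 2 and 3, and that of Ighm without any 1 of premalignant replicates 2 to 5 or wild type replicates 2 to 4 (adjusted p up to 0.0786 for Blnk and 0.104 for Ighm, limma). The summed B cell marker signal was 14.63 to 15.05 in premalignant and 15.15 to 15.56 in wild type samples, without overlap (exact two-sided permutation p = 0.0159, adjusted p = 0.0847 over the measures per array). The B lineage factor Pax5 lay below a level of 4 on all 9 arrays, as did the T cell genes Cd3e, Cd3g, Cd4 and Cd8a, and Cd3d lay above it on premalignant replicate 2 alone (4.13). Cd2, also on the T cell list, was bright on all 9 arrays, at 7.79 or above. The natural killer cell gene Gzma ranged from 3.62 to 8.19 in premalignant and from 4.40 to 6.82 in wild type samples. The macrophage gene C1qa ranged from 6.20 to 8.56 in premalignant and from 6.13 to 8.93 in wild type samples. The part of the neutrophil, red cell, natural killer cell, macrophage and B cell marker signals in the results below was not tested beyond leaving out arrays. In such samples fewer cells of a kind and less RNA per cell cannot be told apart.

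**Figure D1:**
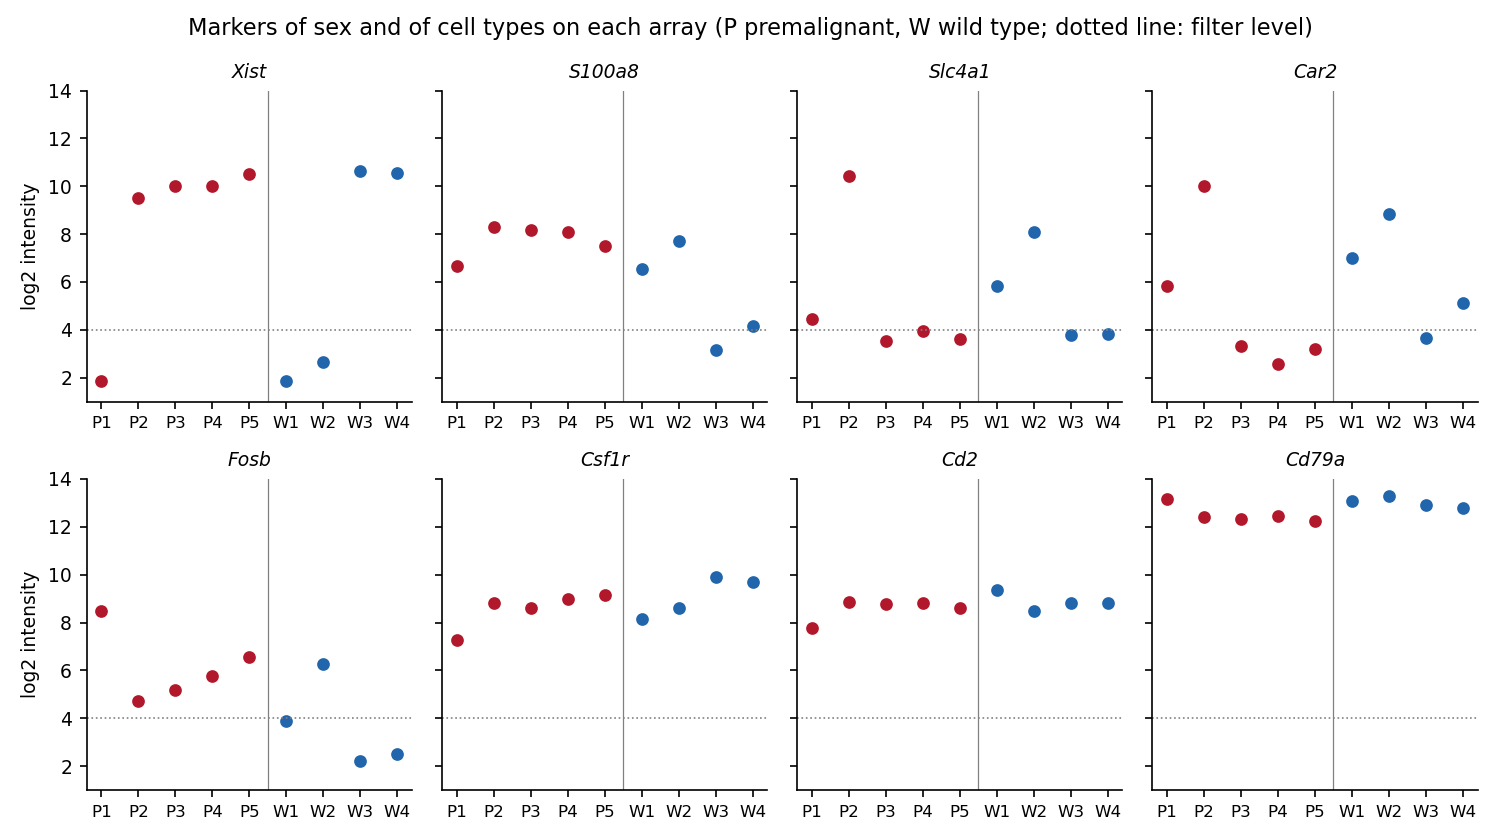
Log2 intensity of 8 genes on each array, premalignant arrays (P) left and wild type arrays (W) right, with 1 point per array. Xist is dim on P1, W1 and W2, Slc4a1 is bright on P2 and W2, and Cd79a is bright on all 9 arrays.

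Of the 6437 genes tested, 1725 differed between premalignant and wild type B cells (26.8%, adjusted p below 0.05, limma), 818 of them higher (12.7%) and 907 lower (14.1%) in premalignant cells. List counts below are read against these shares. Large changes were more often rises. A change of 4-fold or more was seen for 68 genes that rose and 14 that fell, and of 8-fold or more for 2 genes that rose and 0 that fell. Median log2 changes were 0.91 over the genes called higher, -0.81 over those called lower and -0.05 over all genes tested. The values of the 5 premalignant and the 4 wild type arrays did not overlap for 1554 genes (24.1%), including 664 of those called higher and 725 of those called lower. Of the 1725 called genes 656 had more than 1 probe set passing the filter. All probe sets were called the same way for 274 of these (41.8%), and another was called the other way for 2. Folds below are those of the brightest probe set, and other probe sets of a gene need not share its call. The balance depended on scaling: when arrays were centred on the 18 spiked-in control probe sets, the median change over all genes moved to 0.20 and 560 genes were called, 455 higher and 105 lower. The control values come from the same already normalized intensities, so this centring gives no absolute scale and no amount per cell. The falls below are therefore falls relative to the bulk of the genes. A statement that a call did not hold on the spiked-in scale means this centring. List counts on that scale are read against its 455 rises and 105 falls among all 6437 genes. A fit that added the lymphomas gave 756 rises and 739 falls. Without the 3 arrays richest in red cell genes (premalignant replicate 2, wild type replicates 1 and 2) there were 595 and 580.

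**Figure D2:**
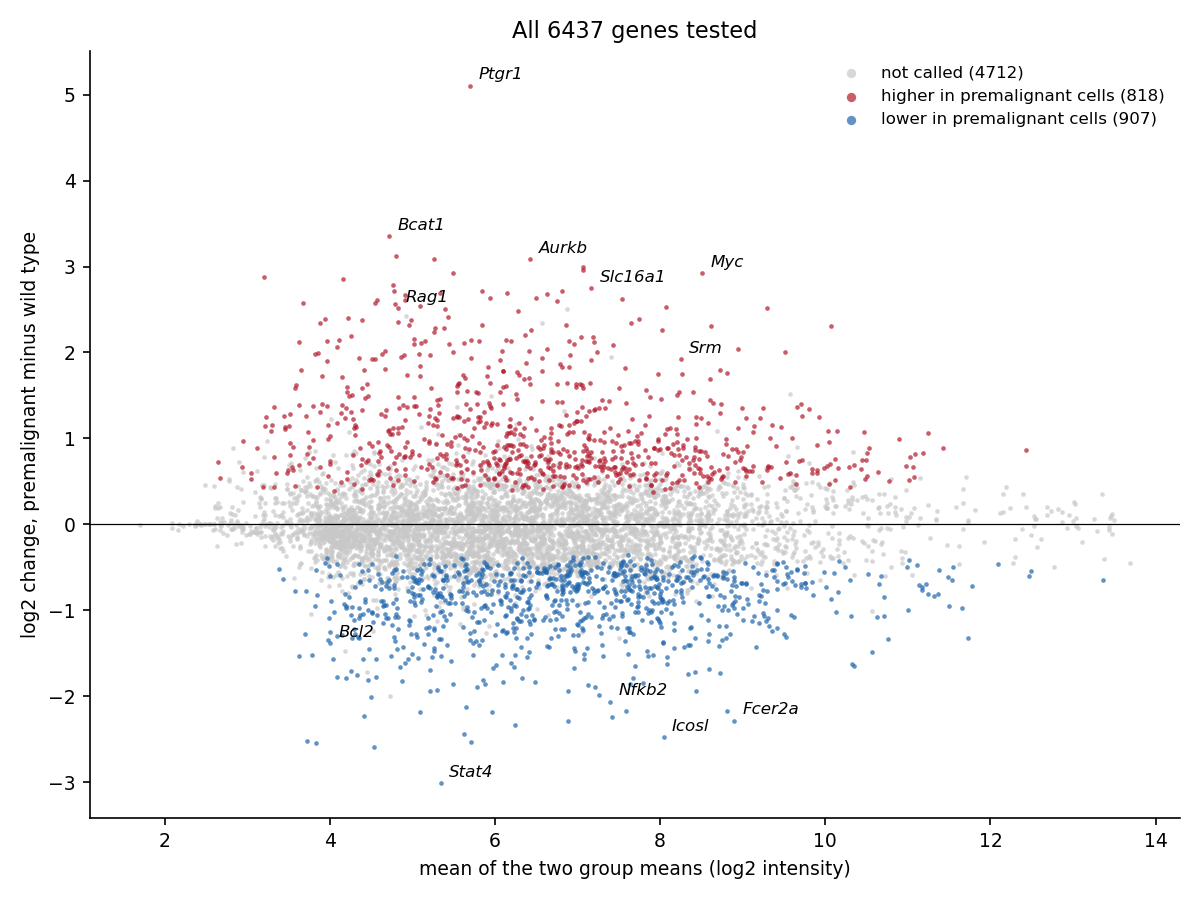
Log2 change (premalignant minus wild type) of each of the 6437 genes tested against the mean of both group means in log2 intensity, with 1 point per gene. Red points are the 818 genes called higher in premalignant cells, blue points the 907 called lower and grey points the 4712 not called, and Ptgr1 stands at the top.

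Of 9 network genes tested, 2 rose (Myc and Mxi1) and 2 fell (Mnt and Mlxip), with a median log2 change of -0.20 that turned positive on the spiked-in scale. Mnt, a repressor that shares Max with Myc, measured 6.47, 6.33, 6.46, 6.45 and 6.53 on the premalignant arrays, against 7.50, 7.57, 6.95 and 6.78 on the wild type arrays. It was 1.68-fold lower without overlap (adjusted p = 0.0107, limma), a call that did not hold on the spiked-in scale, in a fit that added the lymphomas, or without the 3 arrays richest in red cell genes. Mxi1, another Max partner that represses, differed by 1.02 (adjusted p = 0.0397, limma) and lost its call without any 1 of premalignant replicates 1 to 4 or wild type replicates 1, 3 and 4 (adjusted p between 0.0581 and 0.103 over these). Mlxip, which pairs with Mlx in glucose sensing, fell by 0.38 (adjusted p = 0.0427, limma) and lost its call without any 1 of premalignant replicates 2 to 4 or wild type replicates 1 to 4 (adjusted p between 0.0513 and 0.108 over these). Mycn, Mxd3, Mxd4, Mga and Mlx did not pass the test, with log2 changes between -0.24 and 0.51, and Max, Mycl, Mxd1 and Mlxipl lay below a level of 4 on all 9 arrays.

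Ptgr1 led the rises. Ptgr1, a reductase that inactivates prostaglandins and leukotrienes, measured 9.09, 7.58, 8.41, 8.52 and 7.66 on the premalignant arrays, against 3.07, 3.14, 2.93 and 3.44 on the wild type arrays. It was dim on all wild type arrays and at least 19.0-fold higher in premalignant cells (adjusted p = 1.45e-05, limma). Aurkb, the kinase of the chromosomal passenger complex, measured 8.35, 7.84, 8.12, 8.02 and 7.51 in premalignant samples, against 4.63, 4.55, 5.15 and 5.22 in wild type samples. Its groups lay far apart, and Aurkb was 8.47-fold higher (adjusted p = 1.49e-05, limma). Uhrf1, which reads hemimethylated DNA behind the replication fork, measured 8.85, 8.59, 8.81, 8.54 and 8.03 in premalignant samples and 5.86, 5.55, 5.33 and 5.52 in wild type samples, a 7.99-fold rise. Uck2, the uridine-cytidine kinase of pyrimidine salvage, measured 7.50, 6.72, 6.91, 6.92 and 5.98 in premalignant cells, against 4.10, 3.48, 3.50 and 3.78 in wild type cells, and was at least 6.99-fold higher. Slc16a1, a carrier that moves lactate across the plasma membrane, measured 8.25, 8.80, 8.83, 8.52 and 8.30 on the premalignant arrays, against 6.01, 5.89, 5.40 and 5.88 on the wild type arrays. None of these 3 genes overlapped between groups, and Slc16a1 was 6.71-fold higher (adjusted p = 1.48e-05, limma). The remaining rises among the 15 highest ranked were the mitotic genes Ccna2 (7.79-fold), Bub1b (7.62-fold), Pbk (6.57-fold), Birc5 (6.55-fold), Ccnb2 (6.47-fold), Cdca5 (6.43-fold), Nusap1 (6.18-fold) and Ube2c (6.15-fold), the replication licensing factor Cdc6 (at least 6.41-fold), and Myc itself. All of them were called by limma, with adjusted p-values up to 0.00101 (Ccnb2), and the next gene below that edge was the mitotic kinase gene Cdk1, at 6.06-fold.

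**Figure D3:**
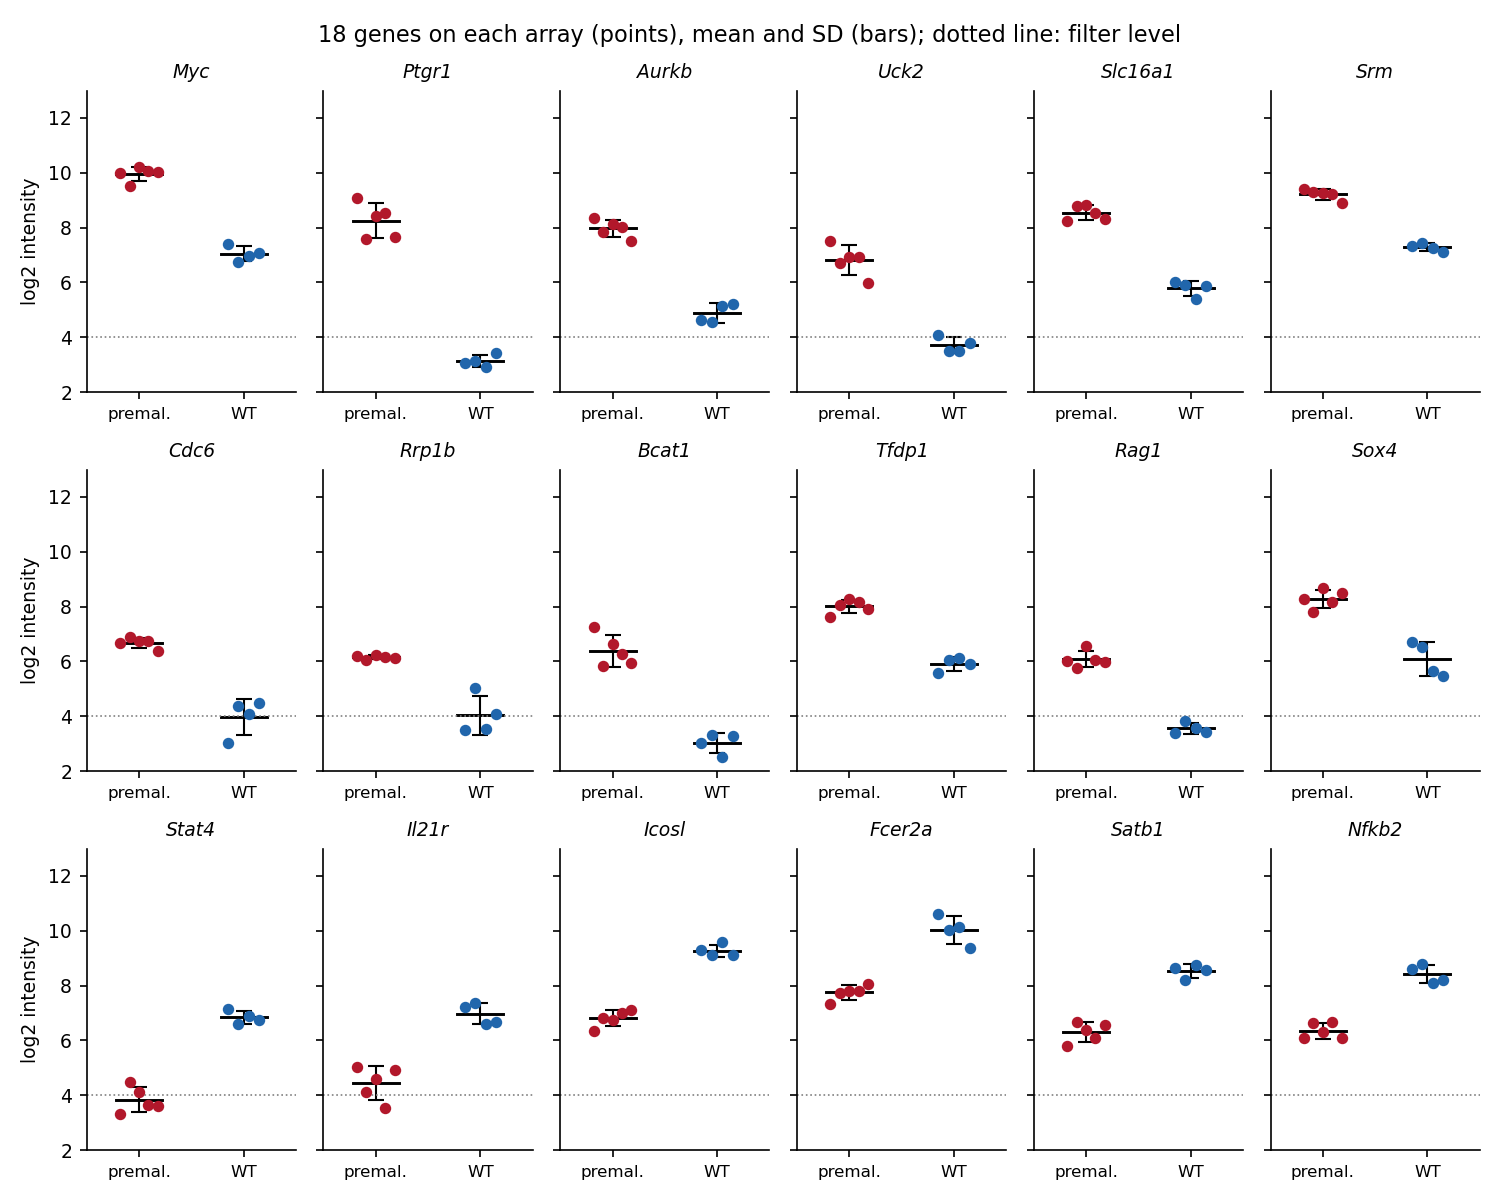
Log2 intensity of 18 genes on each array, 5 premalignant arrays left and 4 wild type arrays right in each panel, with 1 point per array, the group mean and SD as bars and the filter level of 4 as a dotted line. Genes that rose, such as Ptgr1 (lowest premalignant array 7.58, highest wild type array 3.44), and genes that fell, such as Stat4 (highest premalignant array 4.47, lowest wild type array 6.59), show no overlap.

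Promoter sequence was examined as a property that did not enter the comparison. The canonical E-box CACGTG was sought on both strands in RefSeq promoter windows of 300 bases (GRCm38.p6), from 250 bases before to 50 bases after each transcript start. It lay in a window of 111 of 688 genes called higher that had a window (16.1%), 99 of 750 called lower (13.2%), 687 of 5332 tested (12.9%) and 7.15% of all 32851 windows. The other motifs sought do not overlap CACGTG in sequence. The letters TTTCCCGC or TTTGGCGC, the form bound by E2F factors, were in windows of 6.54% of genes called higher, 2.27% of genes called lower and 4.03% of all genes tested, and CCAAT in 47.7%, 43.7% and 43.6%. Among list members with a window, TTTCCCGC or TTTGGCGC was present for 7 of 16 origin licensing genes (43.8%), CCAAT for 28 of 38 mitotic genes (73.7%) and CACGTG for 8 of 35 ribosome biogenesis genes (22.9%), the highest share for each motif among the 8 lists searched. Other lists lay below the share over all genes tested: CACGTG was in 6.25% of origin licensing genes, 6.25% of serine, one-carbon and amino acid genes, 7.14% of mature B cell genes, 7.69% of mitochondrial ribosomal protein genes, 7.89% of mitotic genes and 10.5% of nucleotide synthesis genes. The E2F form was in 2.63% of mitotic genes, 3.08% of mitochondrial ribosomal protein genes, and 0% of both mature B cell genes and serine, one-carbon and amino acid genes. CCAAT was in 34.3% of ribosome biogenesis, 26.3% of nucleotide synthesis, 28.6% of mature B cell and 38.5% of mitochondrial ribosomal protein genes. These are descriptions of letters in a window, and 1107 tested genes have more than 1 window and so more chances to match. Of the 15 highest ranked rises 11 had a window, and CACGTG was present for 1 of these 11 genes, Slc16a1. Aurkb, Ccna2, Myc and Pbk had no window. Windows holding CACGTG are shown for 4 rises without overlap, Slc16a1, Mtm1, Ptprs and Tfdp1, which ranked 8, 33, 37 and 55 by fold. These windows run 5′ to 3′ on the strand of the gene, with the E-box in capitals.
Slc16a1: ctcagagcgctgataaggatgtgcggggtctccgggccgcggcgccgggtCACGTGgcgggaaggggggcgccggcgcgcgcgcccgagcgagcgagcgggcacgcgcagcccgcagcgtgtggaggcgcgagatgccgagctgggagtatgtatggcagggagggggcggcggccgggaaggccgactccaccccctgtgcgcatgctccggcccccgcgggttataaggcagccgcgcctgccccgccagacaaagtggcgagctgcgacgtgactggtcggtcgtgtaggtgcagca
Mtm1: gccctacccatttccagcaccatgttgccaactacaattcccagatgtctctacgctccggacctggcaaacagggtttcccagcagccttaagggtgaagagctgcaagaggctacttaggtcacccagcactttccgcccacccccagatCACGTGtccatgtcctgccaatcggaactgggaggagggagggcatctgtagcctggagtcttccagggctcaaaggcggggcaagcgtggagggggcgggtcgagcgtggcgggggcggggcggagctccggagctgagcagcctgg
Ptprs: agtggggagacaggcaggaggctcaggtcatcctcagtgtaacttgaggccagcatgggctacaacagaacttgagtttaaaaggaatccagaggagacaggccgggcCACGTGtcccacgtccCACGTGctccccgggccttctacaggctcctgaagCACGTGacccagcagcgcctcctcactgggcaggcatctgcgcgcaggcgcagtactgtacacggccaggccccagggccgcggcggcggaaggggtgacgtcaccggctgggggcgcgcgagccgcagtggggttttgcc
Tfdp1: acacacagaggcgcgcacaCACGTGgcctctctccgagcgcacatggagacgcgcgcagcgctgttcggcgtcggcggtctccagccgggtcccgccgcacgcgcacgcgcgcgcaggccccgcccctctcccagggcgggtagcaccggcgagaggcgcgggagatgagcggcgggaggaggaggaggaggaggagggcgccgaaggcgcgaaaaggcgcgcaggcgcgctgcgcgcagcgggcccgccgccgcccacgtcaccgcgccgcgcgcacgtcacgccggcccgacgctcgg
Slc16a1, the lactate carrier described above, holds it 200 bases before the start (chr3:104638414-104638713, plus strand). In the window of Mtm1, a phosphatase of membrane phosphoinositides, it lies 98 bases before the start (chrX:71214756-71215055, plus strand). The window of Ptprs, a receptor tyrosine phosphatase, has 3 copies, the farthest from the start 142 bases before it (chr17:56476431-56476730, minus strand). Tfdp1, the dimer partner of the E2F factors, has it 231 bases before the start (chr8:13338501-13338800, plus strand). Mtm1 measured 8.78, 9.43, 9.13, 9.44 and 9.01 on the premalignant arrays, against 6.01, 6.83, 6.98 and 7.75 on the wild type arrays (4.81-fold higher, adjusted p = 0.000491, limma). Ptprs measured 6.97, 5.85, 6.33, 5.98 and 5.99 in premalignant samples, against 3.53, 5.05, 2.84 and 3.01 in wild type samples, and was at least 4.66-fold higher. Tfdp1 measured 7.63, 8.04, 8.29, 8.16 and 7.90 in premalignant samples, against 5.58, 6.05, 6.13 and 5.89 in wild type samples, a 4.27-fold rise. None of the 3 overlapped between groups.

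Most genes of cell division rose in premalignant cells. Of 43 genes for mitotic cyclins, kinases and the spindle checkpoint, 35 rose and 1 fell, against 12.7% and 14.1% of all genes tested, and the median log2 change was 1.84. The mean over this list was 7.14, 6.59, 6.74, 6.33 and 6.05 on the premalignant arrays, against 4.74, 5.25, 4.63 and 4.87 on the wild type arrays. The groups were separate, with premalignant replicate 1 highest and replicate 5 lowest within their group. Ccna2, the cyclin of S phase and G2, measured 9.38, 8.51, 8.66, 8.31 and 7.87 in premalignant cells, against 4.78, 6.05, 5.53 and 5.98 in wild type cells. Top2a, the topoisomerase that separates sister chromatids, measured 10.42, 9.37, 9.43, 9.06 and 8.43 in premalignant cells, against 6.43, 7.63, 6.08 and 7.09 in wild type cells (5.80-fold higher, adjusted p = 0.0013, limma). Both separated the groups fully. The spindle motors Kif11 (4.86-fold) and Kif20a (at least 4.20-fold) were among 6 of 12 kinesin genes that rose, with 0 falling. The 1 mitotic gene that fell was Pttg1, which encodes securin, the inhibitor of separase. It measured 7.95, 7.50, 7.64, 7.83 and 8.06 in premalignant samples, against 8.30, 9.24, 8.47 and 8.29 in wild type samples (1.72-fold lower, adjusted p = 0.0208, limma), and its call was lost without premalignant replicate 3 (adjusted p = 0.0533, limma), without the 3 arrays richest in red cell genes and on the spiked-in scale.

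Most DNA replication genes tested rose too. Among 20 genes for origin licensing and the MCM helicase, 14 rose and 0 fell (median log2 change 1.25), and among 30 genes of the replication fork 22 rose and 0 fell (median 1.02). Mcm2, a subunit of the replicative helicase, measured 7.69, 7.88, 8.28, 7.95 and 7.52 on the premalignant arrays, against 6.24, 5.96, 6.35 and 6.55 on the wild type arrays. Its groups did not overlap and it was 3.01-fold higher (adjusted p = 0.000219, limma), beside Mcm3 at 2.75-fold. Cdc6, which loads that helicase, measured 6.68, 6.88, 6.73, 6.73 and 6.38 in premalignant cells, against 3.02, 4.36, 4.07 and 4.47 in wild type cells. Further rises were seen for Mcm10 (at least 4.37-fold), which activates the helicase, for Gmnn (3.24-fold), the inhibitor of relicensing, for Pole (4.39-fold), the leading strand polymerase, and for Tipin (3.52-fold) of the fork protection complex. Of 31 checkpoint and repair genes 13 rose and 1 fell, including rises of Trip13 (3.77-fold), a remodeller of checkpoint proteins, Xrcc6 (3.44-fold), the Ku70 end-joining subunit, and Brca1 (2.63-fold), which acts in homologous recombination and lost its call without the 3 arrays richest in red cell genes (adjusted p = 0.0518, limma). Rad9a, of the checkpoint clamp, was 1.96-fold lower, a call that did not hold on the spiked-in scale.

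Regulators upstream of S phase changed in smaller numbers. Of 19 genes for G1 cyclins, cyclin-dependent kinases and their inhibitors 8 rose and 1 fell (median log2 change 0.50), with 5 rising without wild type replicate 1, without wild type replicate 4, without the 3 arrays richest in red cell genes or on the spiked-in scale. Cdk4, the G1 kinase that starts release of E2F, measured 10.19, 9.31, 9.84, 9.71 and 9.29 in premalignant cells, against 8.38, 8.62, 8.24 and 8.03 in wild type cells. It was 2.56-fold higher with no overlap (adjusted p = 0.00106, limma). E2f8, an atypical E2F repressor, was 2.93-fold higher.

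**Figure D4:**
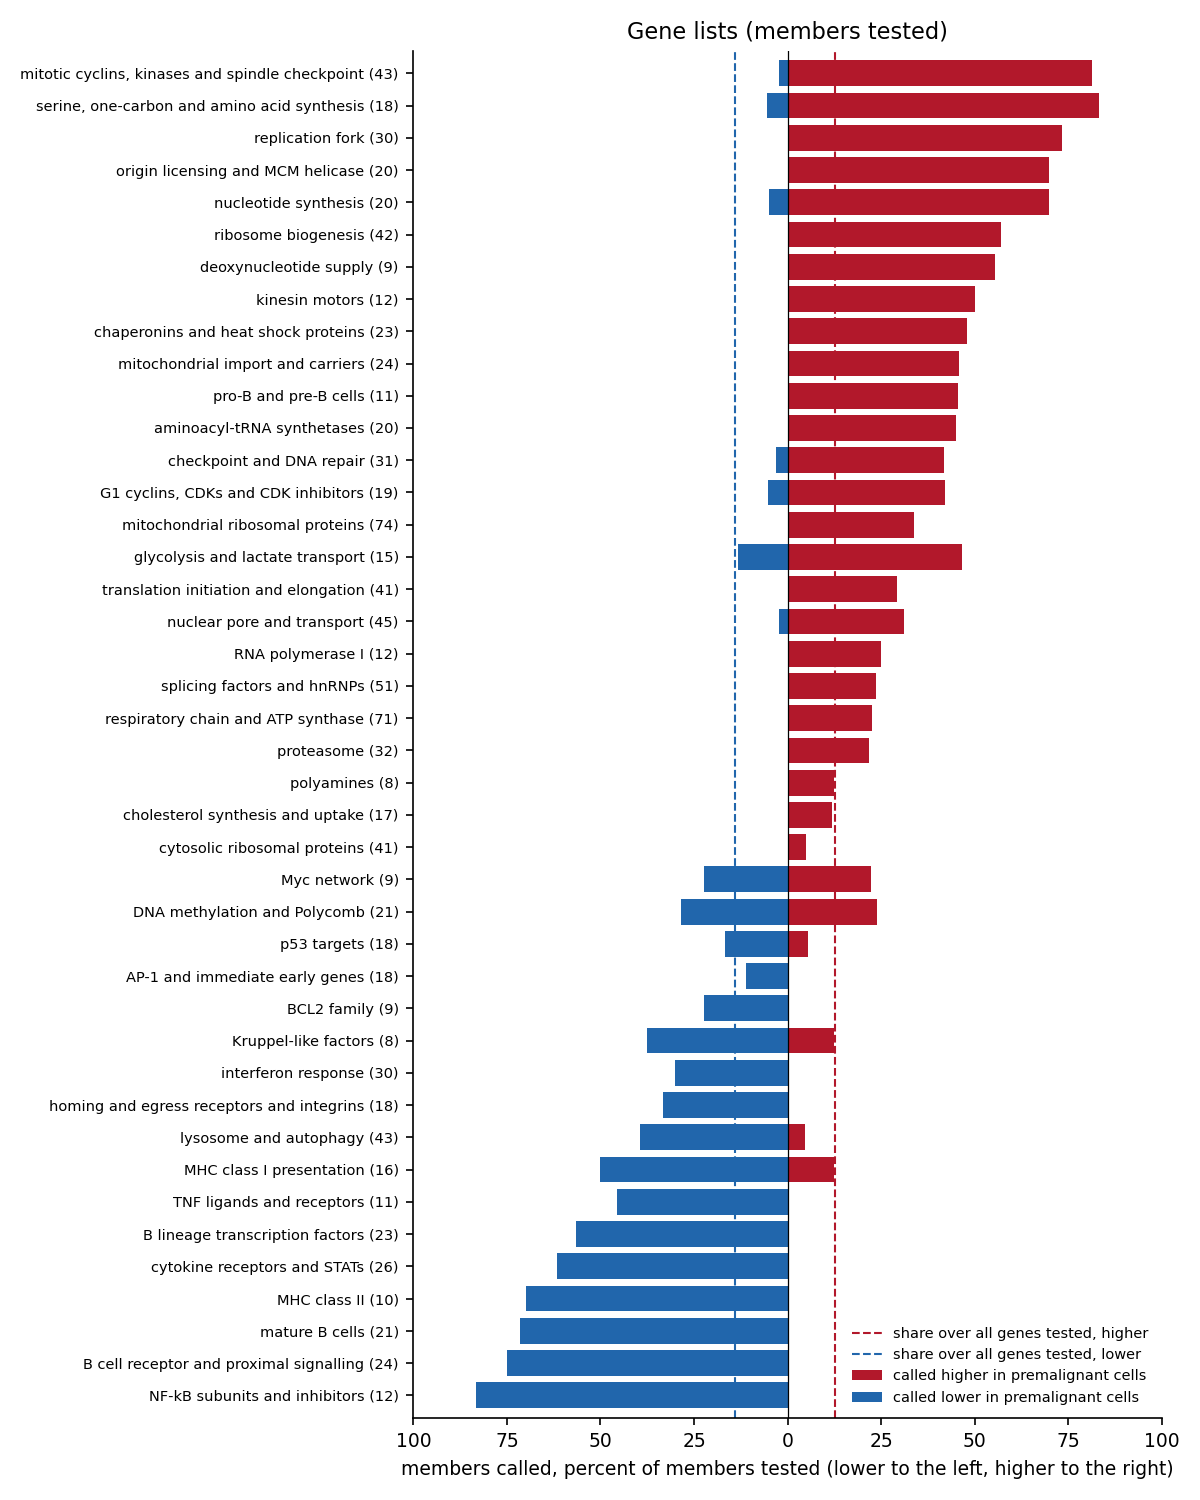
Percent of the tested members of each of 42 gene lists (number tested in brackets) called higher in premalignant cells, drawn to the right in red, or lower, drawn to the left in blue. Dashed lines mark the shares over all genes tested, 12.7% higher and 14.1% lower.

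Lists of the translation machinery gave unequal counts. Ribosome biogenesis genes, which make and assemble ribosomal subunits in the nucleolus, rose in 24 of 42 cases and fell in 0 (median log2 change 0.67, 11 rising on the spiked-in scale). The mean over these genes was 7.73, 7.42, 7.58, 7.51 and 7.19 on the premalignant arrays, against 6.87, 6.80, 6.66 and 6.73 on the wild type arrays, without overlap. Rrp1b, a nucleolar processing factor, measured 6.21, 6.06, 6.24, 6.15 and 6.11 in premalignant samples, against 3.50, 5.04, 3.55 and 4.08 in wild type samples (4.32-fold higher, adjusted p = 0.000491, limma). The groups were separate, and the premalignant arrays lay closer to each other than the wild type arrays did. Wdr12 (3.94-fold) of the large-subunit assembly complex PeBoW rose too, with 1 of its 2 probe sets called. Further rises were those of Nhp2 (2.91-fold) of the H/ACA guide complex, Nop16 (2.85-fold) and the nucleolar phosphoprotein Nolc1 (2.69-fold). Of the cytosolic ribosomal protein genes themselves 2 of 41 rose, a smaller share than the 12.7% of all genes tested, and 0 fell. Their median log2 change was 0.10, and 1 rose without premalignant replicate 3, premalignant replicate 4, wild type replicate 3 or wild type replicate 4. The mean of these 41 genes was 11.54, 11.59, 11.64, 11.66 and 11.67 in premalignant cells, against 11.58, 11.43, 11.47 and 11.51 in wild type cells, and the groups overlapped. Rpl14, 1 of the 2 that rose, was 2.59-fold higher.

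Mitochondrial ribosomal protein genes rose in 25 of 74 cases and fell in 0 (median log2 change 0.45, 7 rising on the spiked-in scale), among them Mrps28 (2.62-fold), Mrpl19 (2.26-fold) and Mrpl12 (2.18-fold). Of 41 translation initiation and elongation factors 12 rose and 0 fell (median 0.32, 7 rising on the spiked-in scale). Eif5a, the hypusine-carrying factor that relieves stalled ribosomes, measured 12.49, 12.98, 12.95, 12.94 and 12.95 in premalignant cells, against 11.90, 11.84, 12.06 and 12.21 in wild type cells. These groups were separate and the rise was 1.82-fold (adjusted p = 0.00196, limma), beside Eif1a, a scanning factor, at 2.25-fold. Among 20 aminoacyl-tRNA synthetase genes, which charge tRNAs, 9 rose and 0 fell, including glycyl-tRNA synthetase Gars (1.85-fold), with 5 rising without premalignant replicate 3 or wild type replicate 3, and 2 without the 3 arrays richest in red cell genes or on the spiked-in scale. Of 12 RNA polymerase I genes 3 rose and 0 fell, against 12.7% and 14.1% of all genes tested. The number rising was 1 on the spiked-in scale and 6 when all probe sets of a gene were averaged.

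Of 20 nucleotide synthesis genes 14 rose and 1 fell (median log2 change 0.91), including Prps1 (3.26-fold), which makes the ribose donor, Ctps (3.02-fold), which makes CTP, the purine enzyme Gart (2.50-fold) and the UMP synthase Umps (2.44-fold). Rrm2, the small subunit of ribonucleotide reductase, measured 10.03, 10.35, 10.07, 9.82 and 9.52 in premalignant cells, against 7.55, 8.54, 7.69 and 7.90 in wild type cells. It was 4.11-fold higher without overlap (adjusted p = 0.000204, limma), and Dut, which keeps uracil out of DNA, was 3.13-fold higher. Of 18 genes for serine, one-carbon and amino acid synthesis 15 rose and 1 fell (median 1.36), a count of 15 whichever array was left out. Bcat1, the cytosolic branched-chain aminotransferase, measured 7.27, 5.83, 6.65, 6.26 and 5.95 in premalignant cells, against 3.03, 3.33, 2.51 and 3.27 in wild type cells. Psat1, the aminotransferase of serine synthesis, measured 8.13, 7.48, 7.64, 7.26 and 7.36 in premalignant cells, against 5.20, 5.93, 4.73 and 5.39 in wild type cells. Neither overlapped, at rises of at least 5.25-fold for Bcat1 and 4.79-fold for Psat1, and the folate enzyme Mthfd1 was 3.67-fold higher.

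The 2 chains of the large neutral amino acid transporter differed in direction. Slc7a5, its transporting light chain, measured 7.63, 7.79, 7.31, 7.26 and 7.31 on the premalignant arrays, against 5.38, 5.41, 5.06 and 5.16 on the wild type arrays, 4.61-fold higher with no overlap (adjusted p = 1.52e-05, limma). Slc3a2, the heavy chain that anchors it, measured 7.68, 7.55, 6.92, 7.30 and 6.82 in premalignant cells, against 7.82, 7.82, 7.85 and 7.80 in wild type cells, 1.48-fold lower (adjusted p = 0.046, limma). That fall lost its call without any 1 of premalignant replicates 3 to 5 or wild type replicates 1 to 4 and under several other settings (highest adjusted p 0.74, on the spiked-in scale). Srm, which makes the polyamine spermidine, measured 9.40, 9.30, 9.27, 9.21 and 8.90 in premalignant cells, against 7.32, 7.45, 7.27 and 7.13 in wild type cells. It rose 3.80-fold (adjusted p = 1.62e-05, limma) and was the 1 gene called of 8 for polyamines, a count that reached 3 without premalignant replicate 5 and 2 without wild type replicate 1 or wild type replicate 2.

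Energy genes rose in part. Of 15 genes for glycolysis and lactate transport 7 rose and 2 fell (median log2 change 0.63), including the hexokinase Hk2 (at least 2.78-fold), Tpi1 (2.41-fold) and Pgam1 (1.92-fold). Ldha, the lactate dehydrogenase subunit, measured 11.05, 10.38, 10.84, 10.81 and 10.32 in premalignant cells, against 9.63, 9.55, 9.54 and 9.65 in wild type cells (2.12-fold higher, adjusted p = 0.00113, limma). All premalignant arrays exceeded all wild type arrays. Of 71 respiratory chain and ATP synthase genes 16 rose and 0 fell (median 0.33, 4 rising on the spiked-in scale and 10 without the 3 arrays richest in red cell genes), among them cytochrome c, Cycs (2.11-fold, not without the 3 arrays richest in red cell genes), and the ATP synthase gene Atp5g1 (1.85-fold). On the spiked-in scale 455 of all 6437 genes rose, a larger share than 4 of 71. Of 24 genes for mitochondrial import and carriers 11 rose and 0 fell, 7 without premalignant replicate 3, premalignant replicate 4 or wild type replicate 1 and 2 on the spiked-in scale, with Timm8a1 (3.10-fold), an import chaperone of the intermembrane space, and Slc25a4 (2.00-fold), an ADP/ATP carrier, among them.

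The lists for protein folding, transport, splicing and the proteasome are read against 12.7% of all genes tested called higher. Of 23 chaperonin and heat shock genes 11 rose and 0 fell, including the mitochondrial chaperonin Hspd1 (2.40-fold) and the cytosolic chaperonin subunit Cct3 (1.88-fold), and 5 rose without the 3 arrays richest in red cell genes and 7 on the spiked-in scale. Nuclear pore and transport genes rose in 14 of 45 cases (9 without the 3 arrays richest in red cell genes) and fell in 1, with Rcc1 (3.59-fold), the exchange factor for Ran, Ipo5 (2.95-fold) and Kpna2 (2.73-fold), both import receptors, among the rises. Splicing factors rose in 12 of 51 cases and fell in 0, including Srsf2 (2.56-fold) and Lsm2 (2.33-fold), and 3 rose without the 3 arrays richest in red cell genes or on the spiked-in scale. Without those arrays 595 of all 6437 genes were called higher, a larger share than 3 of 51. On the spiked-in scale it was 455 of 6437, a larger share too. Proteasome genes rose in 7 of 32 cases and fell in 0, among them Psmd8 (2.37-fold), with 4 rising without premalignant replicate 3, premalignant replicate 4, wild type replicate 3 or wild type replicate 4 and 17 without premalignant replicate 5. That count was 1 on the spiked-in scale, a smaller share than over all genes on that scale.

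**Figure D5:**
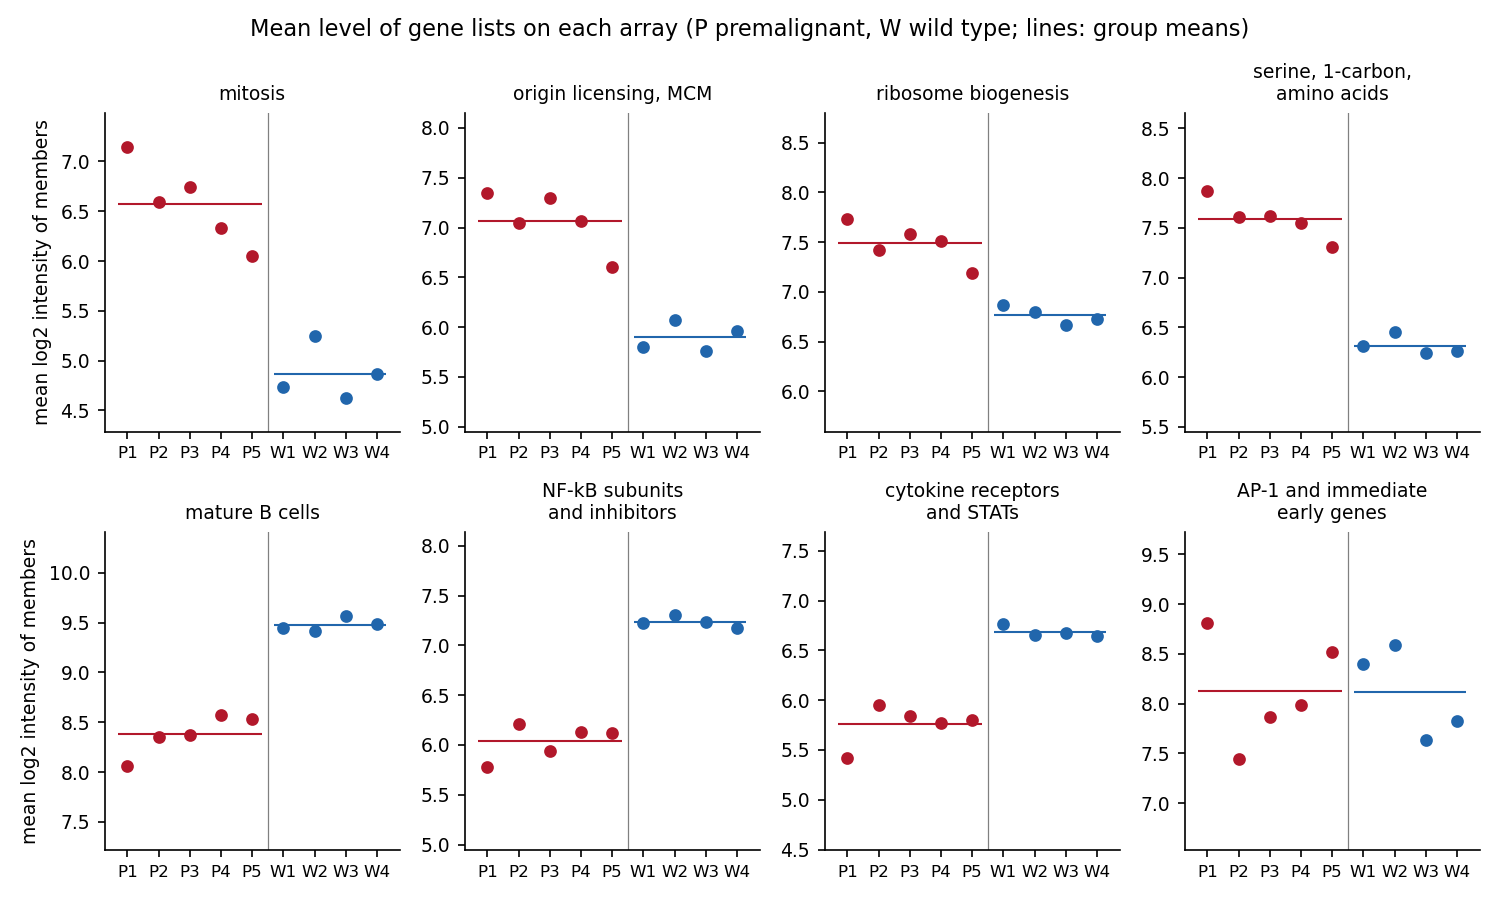
Mean log2 intensity of the tested members of 8 gene lists on each array, premalignant arrays (P) left and wild type arrays (W) right, with group means as lines. Mitotic genes lie between 6.05 and 7.14 on premalignant arrays and between 4.63 and 5.25 on wild type arrays, while AP-1 and immediate early genes overlap.

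The deepest falls were led by Stat4. Stat4, a signal transducer downstream of cytokine receptors, measured 3.33, 4.47, 4.10, 3.66 and 3.61 on the premalignant arrays, against 7.13, 6.59, 6.90 and 6.75 on the wild type arrays. It was at least 7.18-fold lower in premalignant cells (adjusted p = 2.62e-05, limma), and its groups were separate. Icosl, the ligand by which B cells engage the T cell costimulator Icos, measured 6.35, 6.83, 6.76, 6.98 and 7.10 in premalignant samples, against 9.31, 9.11, 9.58 and 9.12 in wild type samples (5.56-fold lower, adjusted p = 1.62e-05, limma). Il21r, a cytokine receptor, measured 5.02, 4.13, 4.61, 3.53 and 4.91 in premalignant samples, against 7.22, 7.38, 6.61 and 6.68 in wild type samples (5.77-fold lower). Satb1, an organiser of chromatin loops in lymphocytes, measured 5.78, 6.69, 6.37, 6.09 and 6.55 in premalignant samples, against 8.62, 8.19, 8.76 and 8.56 in wild type samples (4.72-fold lower). No array of either group entered the other's range for any of the 4. The other falls among the 15 highest ranked were those of Mdfic (5.40-fold), the Ras-family GTPase Rras2 (5.05-fold), the SR-protein kinase Srpk3 (4.88-fold), the low-affinity IgE receptor Fcer2a (4.87-fold), the NF-kB cofactor Bcl3 (4.56-fold), Rgs10 (at least 4.53-fold), a brake on G-protein signalling, the complement receptor Cr2 (4.52-fold), the GTPase Gimap3 (4.51-fold), the immunoglobulin constant region Ighg3 (4.36-fold, a probe set that may cross-hybridise), the NF-kB subunit Nfkb2 (4.18-fold) and the lipoprotein sensor Tlr1 (3.97-fold). The next gene below that edge was Il4ra, at 3.85-fold.

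Most genes of mature B cells fell, as did 5 of the 8 general B cell markers. The part of those markers, and of organ, in the falls of mature B cell genes was not tested. Of 21 such genes tested 15 fell and 0 rose, against 14.1% and 12.7% of all genes tested (median log2 change -1.06), and 9 fell on the spiked-in scale or in a fit that added the lymphomas. The mean over the list was 8.06, 8.35, 8.37, 8.57 and 8.54 on the premalignant arrays, against 9.45, 9.42, 9.57 and 9.48 on the wild type arrays, with premalignant replicate 1 lowest. Fcer2a, found on follicular B cells, measured 7.32, 7.74, 7.82, 7.80 and 8.07 in premalignant cells, against 10.60, 10.02, 10.13 and 9.39 in wild type cells. Cr2, which binds complement fragments on mature B cells, measured 6.96, 7.68, 7.86, 8.24 and 7.86 in premalignant cells, against 9.41, 9.25, 10.45 and 10.48 in wild type cells (adjusted p = 0.000915, limma). Cd40, the receptor for T cell help, measured 4.52, 5.90, 5.35, 5.56 and 5.69 in premalignant cells, against 7.15, 7.33, 6.98 and 6.77 in wild type cells (3.15-fold lower, adjusted p = 0.0012, limma). For all 3 the premalignant arrays lay wholly below the wild type arrays. Of 24 genes for the B cell receptor and its proximal signalling 18 fell and 0 rose (median -0.64), but the count was 0 on the spiked-in scale, 6 in the fit that added the lymphomas and 8 without the 3 arrays richest in red cell genes.

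Genes of earlier B cell stages were fewer and went the other way. Of 11 pro-B and pre-B cell genes tested 5 rose and 0 fell (median log2 change 0.25), with 3 rising without wild type replicate 3, without wild type replicate 4 or in a fit that added the lymphomas. Rag1, a subunit of the V(D)J recombinase, measured 6.01, 5.77, 6.57, 6.06 and 5.99 on the premalignant arrays, against 3.41, 3.83, 3.57 and 3.44 on the wild type arrays. It was dim on all wild type arrays and at least 4.23-fold higher in premalignant cells (adjusted p = 1.52e-05, limma), a call that was lost in the fit that added the lymphomas. Sox4, a transcription factor needed for pro-B cells, measured 8.29, 7.79, 8.69, 8.15 and 8.48 in premalignant cells, against 6.72, 6.53, 5.66 and 5.48 in wild type cells (4.53-fold higher). Myb, a regulator of haematopoietic progenitors, measured 9.15, 7.80, 8.11, 7.76 and 7.80 in premalignant cells, against 6.44, 7.00, 4.95 and 5.38 in wild type cells (4.54-fold higher, adjusted p = 0.00432, limma). None of the 3 overlapped. The share of marrow and spleen in each group was not given, so organ and genotype cannot be told apart where organs differ. This holds as well for the falls of mature B cell genes and for the rises of division genes.

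Transcription factors of the B lineage fell in 13 of 23 cases and rose in 0 (median log2 change -0.69), 8 without wild type replicate 2, 8 in the fit that added the lymphomas, 7 without the 3 arrays richest in red cell genes and 2 on the spiked-in scale. Bcl6, the repressor that directs germinal centre B cells, measured 4.28, 4.78, 5.00, 4.89 and 5.81 in premalignant cells, against 7.04, 6.45, 6.89 and 6.67 in wild type cells (3.50-fold lower, adjusted p = 0.000901, limma). The groups did not overlap. Foxo1 (2.30-fold lower), which acts in recombination and homing, and Mef2c (2.42-fold lower), a target of receptor signals, lost their calls on the spiked-in scale.

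Most genes of the NF-kB system fell. Of 12 genes for NF-kB subunits and inhibitors 10 fell and 0 rose (median log2 change -1.10), 6 without the 3 arrays richest in red cell genes and 3 on the spiked-in scale. Relb, a subunit of the non-canonical pathway, measured 4.43, 5.03, 4.38, 4.63 and 4.30 in premalignant cells, against 6.47, 6.81, 6.27 and 6.11 in wild type cells (3.63-fold lower, adjusted p = 0.000139, limma). Nfkb2, its partner, measured 6.08, 6.63, 6.32, 6.69 and 6.08 in premalignant cells, against 8.62, 8.78, 8.09 and 8.20 in wild type cells. Bcl3 measured 3.94, 5.34, 4.87, 5.13 and 5.07 in premalignant cells, against 7.05, 6.55, 7.37 and 7.26 in wild type cells, and like both subunits showed no overlap. The inhibitor Nfkbie (2.69-fold lower) and the kinase Map3k14 (2.21-fold lower), which starts Nfkb2 processing, lost their calls on the spiked-in scale. Among 11 TNF ligands and receptors 5 fell and 0 rose, 3 falling on the spiked-in scale. Ltb, a membrane ligand that shapes lymphoid tissue, measured 9.20, 9.91, 9.54, 9.60 and 9.29 in premalignant cells, against 11.43, 11.09, 10.91 and 11.11 in wild type cells (3.09-fold lower, adjusted p = 0.000162, limma), a call lost in the fit that added the lymphomas. Lta, the chain that joins it, lay below a level of 4 on all premalignant arrays and between 4.97 and 5.90 on the wild type arrays, at least 2.82-fold lower.

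Of 26 cytokine receptor and STAT genes 16 fell and 0 rose (median log2 change -0.88, 4 falling on the spiked-in scale), including Il4ra (3.85-fold lower) and Tgfbr2 (2.49-fold lower, not on the spiked-in scale). The list mean was 5.42, 5.95, 5.84, 5.77 and 5.80 on the premalignant arrays, against 6.77, 6.65, 6.68 and 6.65 on the wild type arrays, without overlap. Of 18 homing and egress receptors and integrins 6 fell and 0 rose, against 14.1% and 12.7% of all genes tested. The number falling was 3 without wild type replicate 3 and 2 on the spiked-in scale. Ccr6 (3.13-fold lower) and Cxcr5 (2.69-fold lower), chemokine receptors that position B cells in follicles, were among the 6.

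Of 10 MHC class II genes 7 fell and 0 rose (median log2 change -0.67), 2 in the fit that added the lymphomas and 1 on the spiked-in scale. Ciita, the transactivator of that locus, measured 4.78, 4.05, 5.73, 5.68 and 5.68 in premalignant cells, against 7.02, 6.87, 7.27 and 6.90 in wild type cells (3.56-fold lower, adjusted p = 0.00285, limma). H2-Ab1, a class II beta chain whose probe set may cross-hybridise, measured 10.81, 11.14, 11.20, 11.35 and 11.32 in premalignant cells, against 12.20, 11.90, 12.26 and 12.20 in wild type cells (1.97-fold lower, adjusted p = 0.000999, limma). Neither overlapped between groups, and the H2-Ab1 call held neither on the spiked-in scale nor with the lymphomas in the fit. For MHC class I presentation 8 of 16 genes fell and 2 rose, and between 2 and 8 fell when 1 array was left out. It was 2 to 4 without premalignant replicate 3, 4 or 5 or without any 1 wild type array, and 0 on the spiked-in scale. Tap1, a subunit of the peptide transporter, was 2.04-fold lower, a call lost on the spiked-in scale.

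The class II signal is shared with other antigen-presenting cells. The summed dendritic cell marker signal was 7.90 to 8.41 in premalignant and 8.61 to 9.18 in wild type samples. Tcf4 was far the brightest gene of this sum (mean 7.43 in premalignant, 8.57 in wild type samples). Bst2, the next brightest, went the other way (5.79 and 5.52), and the median log2 change was -0.06 over the 3 genes tested. The stromal and endothelial sum was 7.62 to 8.01 in premalignant and 8.35 to 8.50 in wild type samples, with Pecam1 far the brightest of its genes (mean 6.62 in premalignant, 7.69 in wild type samples) and a median log2 change of -0.03 over the 10 genes tested. Neither sum overlapped, each with the smallest p an exact two-sided permutation test over 5 and 4 arrays can give (0.00794, adjusted p at least 0.063). Of 3 dendritic cell genes tested 1 fell, Tcf4 (2.21-fold), which B cells also express. Of 10 stromal and endothelial genes 2 fell, among them the adhesion molecule Pecam1 (2.11-fold). The calls of Tcf4 and Pecam1 did not hold on the spiked-in scale. The endothelial genes Cdh5, Kdr, Emcn and Vwf lay below a level of 4 on all 9 arrays. The summed monocyte and macrophage signal was brighter than the dendritic sum and overlapped between groups. It was 9.6 to 11.8 in premalignant and 10.85 to 12.02 in wild type samples (exact two-sided permutation p = 0.587, adjusted p = 0.742). The mean over its tested genes was 5.69 on premalignant replicate 1 and 8.11 on premalignant replicate 2. The part of all these cells in the falls was not tested.

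Interferon-response genes fell in 9 of 30 cases and rose in 0 (median log2 change -0.56), against 14.1% and 12.7% of all genes tested. The number falling was 5 without premalignant replicate 3, premalignant replicate 5, wild type replicate 1 or wild type replicate 3 and 2 on the spiked-in scale. Irf1 (2.69-fold lower), a transcription factor induced by interferon, was an example. Lysosome and autophagy genes fell in 17 of 43 cases and rose in 2 (median -0.40), 11 without premalignant replicate 3 or without wild type replicate 4 and 1 on the spiked-in scale. The autophagy receptor Sqstm1 (1.87-fold lower) and the protease Ctsh (1.83-fold lower) were among those that lost their calls on the spiked-in scale.

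Survival, growth-arrest and chromatin genes are read against 26.8% of all genes tested called (12.7% higher and 14.1% lower). The counts for the BCL2 family and p53 targets lie near that share. Of 9 BCL2 family genes 2 fell, both of them guardians of mitochondrial integrity. Bcl2 measured 3.25, 3.69, 3.20, 3.20 and 3.22 on the premalignant arrays, against 5.11, 5.31, 4.03 and 4.30 on the wild type arrays, at least 1.61-fold lower (adjusted p = 0.00335, limma). Mcl1 measured 10.35, 10.59, 10.09, 10.28 and 10.13 in premalignant cells, against 11.32, 11.24, 10.97 and 10.98 in wild type cells (1.79-fold lower, adjusted p = 0.00225, limma). Neither overlapped, and neither call held on the spiked-in scale. Of 18 p53 target genes 1 rose and 3 fell, 0 of the falls on the spiked-in scale, and their median log2 change was -0.04, close to that of all genes. Among 8 Kruppel-like factors, Klf9 rose (2.59-fold) and 3 fell, 1 of them on the spiked-in scale, including Klf3 (2.42-fold, not on that scale). Of 21 genes for DNA methylation and Polycomb 5 rose and 6 fell. Uhrf1 and the helicase Hells (5.00-fold higher), which acts in DNA methylation, were among the rises, and Ezh1, the Polycomb methyltransferase of non-dividing cells, was at least 1.54-fold lower, a call not held on the spiked-in scale. Of these genes 2 fell without wild type replicate 1, 3 without premalignant replicate 3, premalignant replicate 4, wild type replicate 3 or wild type replicate 4, and 0 on the spiked-in scale.

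Some changes ran between a dim and a measured signal. On all 4 wild type arrays 37 genes (0.575% of those tested) lay below a level of 4 while all 5 premalignant arrays lay above it. All 37 were called higher, but genes picked for separate groups nearly always are. Of 720 genes whose premalignant values all lay above the wild type values 664 were called higher. Examples were picked after the values were seen. They included the asparagine synthetase Asns (at least 2.05-fold), the spindle-pole protein gene Aspm (at least 2.07-fold), the checkpoint kinase Bub1 (at least 4.44-fold), the replication-licensing regulator Dtl (at least 3.99-fold), the lipid carrier Fabp5 (at least 4.75-fold), Smyd2 (at least 5.16-fold), which methylates lysines, and Ung (at least 2.26-fold), which removes uracil from DNA. In the opposite direction 17 genes (0.264%) were dim on all premalignant arrays and measured on all wild type arrays. For genes of both kinds the arrays of the brighter group are enough to pass the filter, which also counts the lymphoma arrays. Among the 17 were Cd200 (at least 3.55-fold lower), an inhibitory surface ligand, Bhlhe40 (at least 1.98-fold lower), a transcriptional repressor, Hs3st1 (at least 2.15-fold lower), a heparan sulfate sulfotransferase, and Sema7a (at least 1.48-fold lower), a membrane semaphorin whose call did not hold on the spiked-in scale.

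Spread within the groups was similar, with a median SD over genes of 0.28 log2 units on premalignant arrays and 0.26 on wild type arrays. AP-1 and immediate early genes, induced within minutes of stimulation or handling, varied within each group. Their mean was 8.81, 7.44, 7.87, 7.99 and 8.52 on the premalignant arrays, against 8.40, 8.59, 7.64 and 7.82 on the wild type arrays, with full overlap. Fosb, an AP-1 subunit, measured 8.46, 4.71, 5.17, 5.79 and 6.57 in premalignant cells, against 3.89, 6.26, 2.21 and 2.49 in wild type cells, and was not called (adjusted p = 0.0714, limma). Of 18 such genes 2 fell and 0 rose, against 14.1% and 12.7% of all genes tested. The number falling was 6 without premalignant replicate 1 and 1 without premalignant replicate 2, 3 or 4 or wild type replicate 1 or 2. It was 0 without wild type replicate 4 or in the fit that added the lymphomas. The list's median log2 change of -0.10 turned positive on the spiked-in scale. Within the arrays with Xist (4 premalignant, 2 wild type) and those without it (1 premalignant, 2 wild type), the median log2 change was 1.98 and 2.27 for mitotic genes, -0.92 and -1.27 for mature B cell genes, and -1.17 and -1.45 for NF-kB genes. For AP-1 and immediate early genes it was -0.28 and 0.31. The first 3 lists have separate groups, so nearly any subset of the same arrays keeps their sign. These medians therefore do not test whether the differences depend on Xist. The AP-1 list, whose groups overlap, changed sign between the sets.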

How the data were processed

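RNA of B cells from 5 premalignant Eμ-Myc and 4 wild type mouse samples was measured on MOE430A arrays, 1 array per sample, within a series of 22. The deposited values are linear intensities, made by the authors with GCRMA (a background correction and quantile normalization that uses probe sequence) per the submitters' processing notes, version not given in the sources used here. Scanner files were not used, so scan and hybridisation batches are not known here.

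Intensities were taken to log2, here and not by the authors. The deposited intensities give no depth, and the number of arrays limits precision. Of 20380 probe sets with 1 gene symbol in the platform annotation (1555 have none and 691 several), 9832 lay above log2 4 on at least 4 of all 22 arrays. The brightest probe set stood for each of 6437 genes. Premalignant and wild type arrays were compared in limma 3.58.1 (R 4.3.3) with lmFit and eBayes, without covariates, and a gene was called at a Benjamini-Hochberg adjusted p below 0.05 over all 6437 genes. For folds, a group mean under 4 was set to 4 and the fold written as at least that large. Single values per array were compared by exact two-sided permutation tests (smallest possible p 0.00794). The limma procedure was tested on simulated data. Promoters were searched in Python 3.11.15.

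The comparison, the 42 gene lists and the 11 marker lists were chosen with earlier results of these data known, so list counts are descriptions. Genes named were the tested Myc network, the 15 highest rises and 15 deepest falls by fold without overlap, up to 5 called members per list in its main direction and up to 2 in the other, the 10 genes of largest spread over premalignant arrays, and called markers of other cells. Marker genes and edge genes outside these were named after their values were seen. Alternatives were no filter, a filter over the 9 arrays, the mean over probe sets, median and spiked-in centring, a fit with the lymphomas, an intensity trend with robust prior, the replicate number as a block and leaving out arrays. An Xist term, and leaving out premalignant replicate 2 with wild type replicates 1 and 2 (brightest in red cell genes), were added after seeing the data. Same-numbered samples did not deviate together, so numbers were not taken as pairs. Lists not described in the text gave 5 of 9 rises for deoxynucleotide supply and 2 of 17 for cholesterol synthesis, against 12.7% of all genes tested. The cholesterol count was 1 without any 1 of premalignant replicates 3 to 5 or wild type replicates 1 and 2, and 3 without wild type replicate 3. Among the marker lists, T cells (3 tested), natural killer cells (3), neutrophils (6), monocytes and macrophages (11), platelets (1) and sex-linked transcripts (2) gave 0 calls. Erythroid cells gave 1 rise of 4, plasma cells 1 rise and 1 fall of 7, and B cells 5 falls of 8.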

Additional observations from a re-analysis of the deposited data

Results flagged for a closer look

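In 17 of 320 groups of values (149 genes and 11 control and gene list means per array, each in both groups) 1 array stood apart from the others of its group by more than Dixon's 95% critical value. Chance alone marks about 1 in 20 independent, normally distributed groups. These groups share the same 9 arrays, and many genes were named by their values. The number marked therefore does not tell whether chance gave it. Premalignant replicate 1 stood apart for Srpk3 (4.84, others 5.87 to 6.13), Eif5a (12.49, others 12.94 to 12.98), Myb (9.15, others 7.76 to 8.11), Cd79a (13.17, others 12.26 to 12.44), Hs3st1 (2.69, others 2.51 to 2.54) and Xist (1.85, others 9.51 to 10.50). Premalignant replicate 2 stood apart for Slc4a1 (10.41, others 3.53 to 4.44), Ccr6 (5.76, others 6.94 to 7.42), Eif1a (6.26, others 6.64 to 6.76), Bcl2 (3.69, others 3.20 to 3.25) and Ezh1 (3.84, others 3.18 to 3.32). Premalignant replicate 5 was lowest for Mrpl19 (6.07, others 6.62 to 6.76) and highest for Bhlhe40 (2.80, others 2.36 to 2.45). Among wild type arrays, replicate 2 stood apart for H2-Ab1 (11.90, others 12.20 to 12.26), Cd200 (6.29, others 5.66 to 5.70) and Cdk1 (6.24, others 5.12 to 5.26), and replicate 3 for Tgfbr2 (9.67, others 9.35 to 9.40). The values of Bcl2, Ezh1, Bhlhe40 and Hs3st1 concerned lie below a level of 4, where order carries little information.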

How the results depend on the processing

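The Myc difference was called under all 20 alternatives (2.81 to 3.18 log2 units). Leaving out 1 array gave 1292 to 1804 called genes, 614 to 894 higher and 678 to 981 lower. The same omissions gave 34 to 36 rises for mitotic genes, 14 to 15 for origin licensing, 18 to 23 for the replication fork, 19 to 26 for ribosome biogenesis and 15 to 15 for serine, one-carbon and amino acid synthesis. They gave 13 to 16 falls for mature B cell genes, 14 to 17 for cytokine receptors and 8 to 11 for NF-kB genes. Spiked-in centring changed most: 560 genes were called, 455 higher and 105 lower (81.2% higher, against 47.4%), with 11 rises for ribosome biogenesis and falls of 9 mature B cell, 4 cytokine receptor and 3 NF-kB genes. The spiked-in mean was 9.38 ± 0.33 in premalignant and 9.64 ± 0.49 in wild type samples (SD, n = 5 and 4, exact permutation p = 0.389), so this scale adds spread of its own. With the lymphomas in the fit 9 mature B cell genes fell. Without the arrays richest in red cell genes 580 genes fell, 6 of them NF-kB genes. A term for Xist raised the calls to 2239, with 39 mitochondrial ribosomal protein genes and 15 proteasome genes rising.

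With the replicate number as a block, 1418 genes were called, 768 higher and 650 lower. The deviations of same-numbered samples correlated at 0.105, -0.06, 0.192 and 0.21, so the numbers give no pairing, and only numbers 1 to 4 occur in both groups. Of 237 genes given by the naming rule 222 were called, 114 of them under all alternatives and 142 under all but spiked-in centring, and none changed direction while called. Without a filter on dim probe sets 1476 of 12393 genes were called. Genes dim in 1 group have only a bound on their fold.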
